A study of Aspergillus nidulans with 24 samples.

Results

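The dba cluster of the filamentous fungus Aspergillus nidulans is a run of neighbouring genes on chromosome II that is named for a polyketide pathway. Its members here were the identifiers AN7894 to AN7903, the cluster with its edge. All 10 were among the 10631 genes measured, and all 10 passed the filter on low values that left 9201 genes for testing. The members were selected on their measured values, as neighbours that were high in the mannanase strain at 2 h and low in the beta-glucosidase strain at 8 h, both against the parental strain. Those comparisons are therefore given as a description without a test.

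Fungi often keep the genes for a polyketide or another secondary metabolite side by side, with a synthase, tailoring enzymes and commonly a transporter and a transcription factor of the pathway. Such clusters are mostly silent in laboratory culture and are switched on together. The dba cluster takes its name from derivatives of benzaldehyde, and it is known for being opened in A. nidulans strains that lack a subunit of the COP9 signalosome, a complex that controls protein breakdown. The gene table used here gives no symbol or function for any of the 10 identifiers, so they are described by identifier, in the order in which they lie on the chromosome.

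RNA was sequenced from mycelium of 4 strains. The parental strain A773 carries pyrG89, wA3 and pyroA4, and each of its 3 recombinant derivatives makes a foreign enzyme: AbfA an alpha-arabinofuranosidase of family GH51, BglC a beta-glucosidase of family GH3, and 1542 a thermophilic mannanase of family GH5. Mycelium was grown on 1% glucose and induced in minimal medium with 2% maltose at 37 °C to activate the promoter that drives each foreign enzyme, and was sampled at 2 h and at 8 h. Pyridoxine, uracil and uridine were added as needed. The sources used here do not say which strain received which supplement, whether a recombinant strain is 1 clone, or where its foreign gene sits in the genome. Biological triplicates at both times gave 8 groups of 3 libraries.

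Levels are FPKM, fragments scaled to gene length and to library size, as deposited. Group values are means ± SD with n = 3 libraries. Differences are log2 ± SE on the log2(FPKM + 1) scale, which understates differences of low genes. The whole reads behind the values totalled 7140121 to 32309717 per library, and a single read in 1 kb of gene was worth 0.03095 to 0.1401 FPKM. The foreign genes matched the strain labels, at 695 to 1067 FPKM in their own strain for the mannanase gene, 2689 to 6255 for the AbfA gene and 5805 to 9177 for the BglC gene. In the other strains the highest values were 0.428, 0.350 and 1.98 FPKM.

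The members' levels ran together as a block, which is partly set by their choice as neighbours with shared directions. The groups set side by side below differ in both strain and time, and the parental libraries at 2 h took part in the choice. In the mannanase strain at 8 h, its members ranged from 17 ± 2.27 FPKM (AN7900) to 874 ± 261 FPKM (AN7894), while in the parental strain at 2 h they ranged from 0.0812 ± 0.0577 FPKM (AN7903) to 16.1 ± 5.01 FPKM (AN7896). The block reached beyond the members on 1 side: AN7893, next to AN7894, was at 435 ± 166 FPKM in 1542 at 8 h and at 2.15 ± 1.98 FPKM in the parental strain at 2 h. AN11584, which lies between AN7897 and AN7898 in the gene table, followed the members as well. The next neighbours outward did not follow them. AN7892 was at 3809 FPKM in 1542 at 8 h and 2783 FPKM in the parental strain at 2 h, and AN7904 at 15.9 and 13.2 FPKM. AN7892 had its highest group means at 2 h in the recombinant strains, at 7616 to 7925 FPKM.

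**Figure D1:**
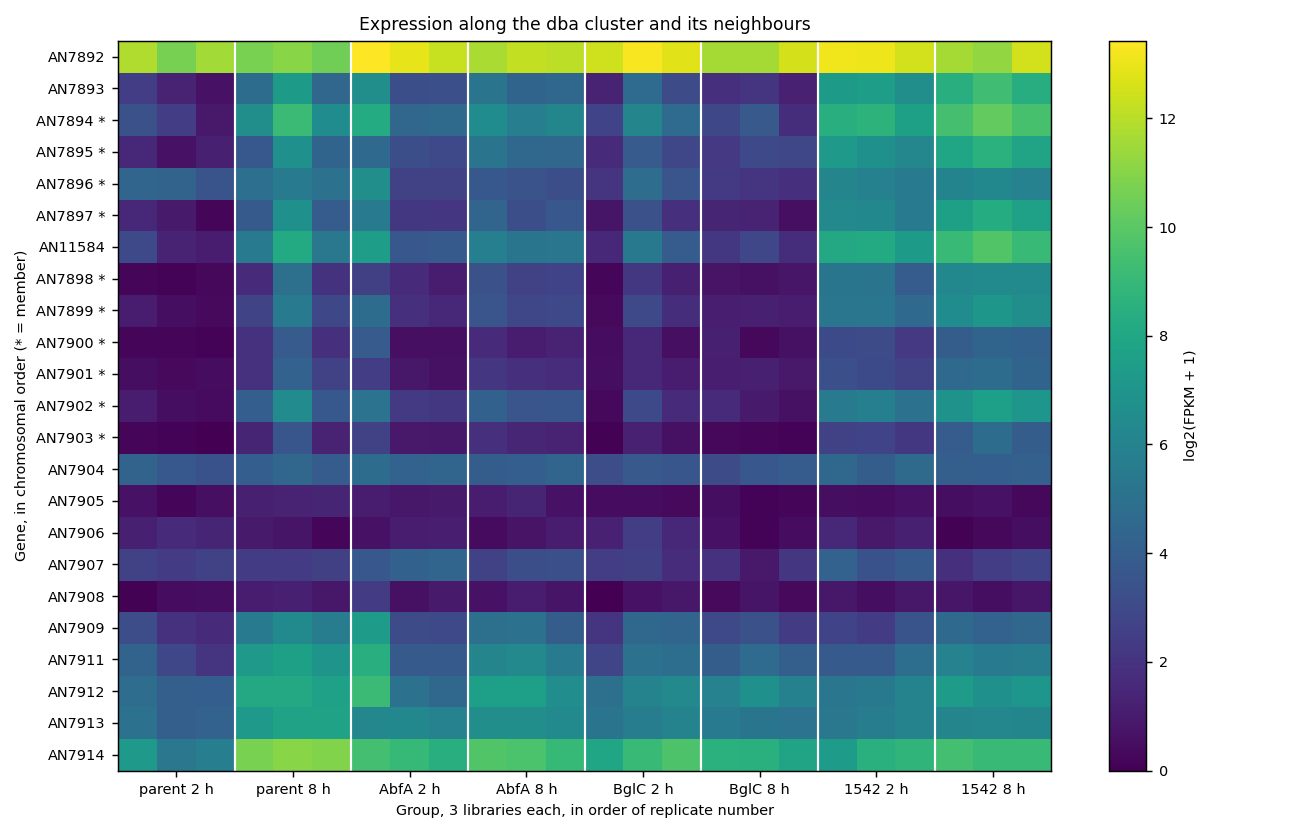
Expression along the dba cluster and its neighbours, with genes in chromosomal order down the side (members starred), the 24 libraries across in 8 groups of 3, and colour for log2(FPKM + 1). The rows from AN7893 to AN7903 brighten and darken together, brightest in 1542 at 8 h, and the rows AN7892 and AN7904 at either end do not follow them.

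The comparison of 1542 with AbfA at 8 h uses no library of the comparisons by which the members were picked, and it asks whether the 2 recombinant strains differed in the cluster. It is not fully independent of the choice, because the members were picked as high in this same strain 1542 at 2 h. The spread behind the test also comes from all 24 libraries. The members rose and fell together, so their calls are not separate results. All 10 members were higher in 1542, by 2.63 ± 0.73 (AN7896) to 4.12 ± 0.80 (AN7897) on the log2 scale. Every 1 of the 10 passed limma's test with Benjamini-Hochberg adjustment over all genes, with adjusted p from 0.0021 to 0.034. Of all 9201 genes tested, 2.04% passed upward in this comparison and 4.77% downward. The median difference of the members was 3.38, beside −0.03 over all genes tested. Only 20 of the 9201 genes differed upward by as much as the least changed member, 10 of which were the members. The libraries of the 2 strains did not overlap for 10 of 10 members, beside 13.9% of all genes whose 1542 libraries all lay above those of AbfA.

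The single libraries show the size of this difference. AN7897 was at 198, 319 and 202 FPKM in 1542 at 8 h (replicates 1 to 3) and at 19.7, 8.29 and 11.7 FPKM in AbfA, an 18.1-fold ratio of the means (adjusted p = 0.0054 by limma). The lowest 1542 library thus lay far above the highest AbfA library. AN7894, the shortest member with a coding length of 333 bases, was at 715, 1175 and 733 FPKM in 1542 and at 91.3, 53 and 70.6 FPKM in AbfA (log2 difference 3.59 ± 0.94, adjusted p = 0.026 by limma). AN7903, the longest with 7818 coding bases, was at 14.2, 25.6 and 14.7 FPKM against 2.53, 1.76 and 1.57 FPKM (2.66 ± 0.49, adjusted p = 0.0042 by limma). Both members, the first and last identifiers of the range, were therefore higher in every 1542 library, although their levels per length lay far apart.

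The members between them behaved alike. AN7895 was at 240, 378 and 229 FPKM in 1542 and 35.2, 22.5 and 20.6 FPKM in AbfA (3.39 ± 0.61). AN7898 was at 76.8, 84.7 and 85.1 FPKM against 9.2, 5.21 and 5.59 FPKM (3.48 ± 0.62). AN7902 was at 118, 187 and 130 FPKM against 17.2, 10.7 and 11.2 FPKM (3.38 ± 0.72). In each, replicate 1 was the highest AbfA library, and replicate 2 of 1542 was the highest for 9 of the 10 members. AN7899 (3.64 ± 0.73), AN7900 (2.85 ± 0.64) and AN7901 (2.69 ± 0.45) completed the run.

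The call of AN7896 was the least firm. It was at 65.4, 77.2 and 60 FPKM in 1542 and 12.1, 9.79 and 8.32 FPKM in AbfA, a 6.70-fold ratio of the means (adjusted p = 0.034 by limma). Its call ended when any one of the 6 libraries was left out (adjusted p = 0.057 to 0.12 by limma) and with voom on the recovered reads (adjusted p = 0.074). The call of AN7894 ended when any of these libraries but 1542 replicate 3 was left out (adjusted p from 0.051 to 0.11 by limma) and held with voom (adjusted p = 0.026), and that of AN7900 without AbfA replicate 2 (adjusted p = 0.051 by limma), so that 7 to 9 members kept a call.

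Most of the flanking genes named here did not pass in this comparison. AN7893 (4.02 ± 0.86, adjusted p = 0.0086 by limma) and AN11584 (3.90 ± 0.94, adjusted p = 0.017 by limma) were higher in 1542 like the members. AN7892 (−0.19 ± 0.37) and AN7904 (−0.03 ± 0.25) did not pass, and neither did AN7905 to AN7908. AN7909 to AN7914, entered in the gene lists from general knowledge as the orsellinic acid cluster, begin 5 genes further on. None of the 5 measured there passed, with differences from −0.40 ± 0.23 (AN7913) to −0.18 ± 0.74 (AN7912).

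**Figure D2:**
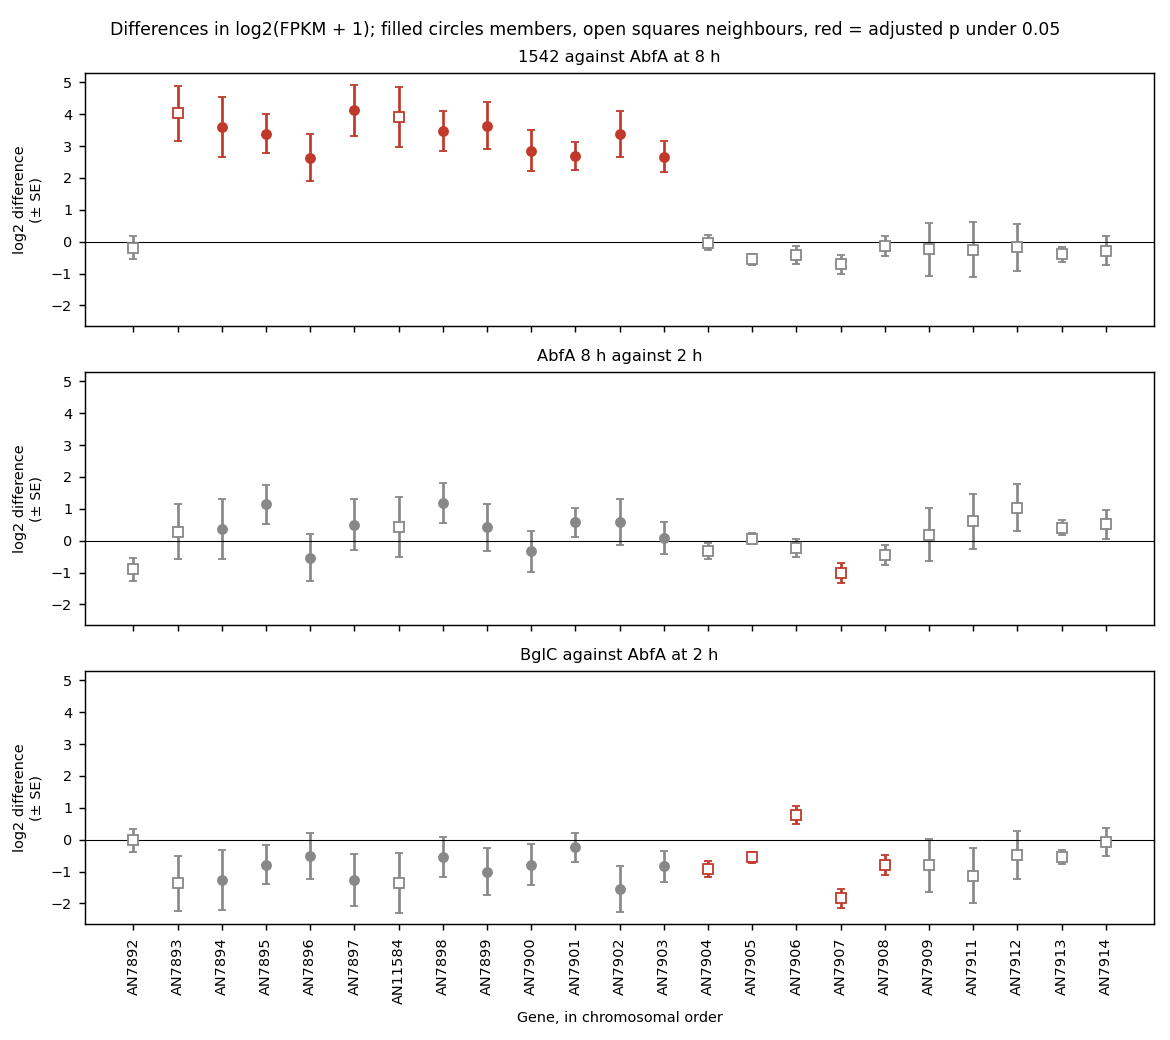
Log2 differences ± SE of log2(FPKM + 1) for genes in chromosomal order in the 3 comparisons that share no library with those by which the members were picked (filled circles members, open squares neighbours, red for a limma adjusted p under 0.05). In the top panel the genes from AN7893 to AN7903 stand at 2.63 to 4.12 and their neighbours near 0, and in the lower panels no member is red.

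In AbfA no change of the cluster with time passed the test with all libraries in the fit, nor with any 1 of the 6 AbfA libraries left out. The members' differences between 8 h and 2 h ran from −0.53 ± 0.73 (AN7896) to 1.18 ± 0.62 (AN7898), with adjusted p from 0.19 to 0.92 by limma. Limma and voom on the recovered reads each called 0 of 10, and 0 had an unadjusted p under 0.05, in a comparison in which 10.9% of all genes passed upward and 8.14% downward. The spread at 2 h was wide, because 1 of the 3 libraries stood apart. AN7894 was at 311 FPKM in replicate 1 of AbfA at 2 h and at 20.3 and 23.7 FPKM in replicates 2 and 3, and then at 91.3, 53 and 70.6 FPKM at 8 h. AN7897 showed the same order, with 43.2, 3.55 and 3.29 FPKM at 2 h and 19.7, 8.29 and 11.7 FPKM at 8 h. For AN7898, the 1 member whose groups did not overlap (23.7% of all genes were likewise higher in every 8 h library), the values were 4.85, 2.02 and 1.01 FPKM at 2 h and 9.2, 5.21 and 5.59 FPKM at 8 h. Without replicate 1 at 2 h the median difference of the members was 1.49 in place of 0.46, and 0 members passed. When parental replicate 2 at 8 h and BglC replicate 2 at 2 h, which enter the shared spread, were left out as well, 8 of 10 members passed as higher at 8 h, all but AN7894 and AN7896 (adjusted p from 0.0021 to 0.044 by limma). These 3 libraries were chosen after seeing the data, by the members' own values. Leaving out the highest AbfA library lowers the members' 2 h means by construction, and the choice also bears on the spread. Those calls are therefore no evidence of a change with time.

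BglC and AbfA at 2 h also did not differ beyond their spread in any member. All 10 differences were on the lower side for BglC, from −1.56 ± 0.72 (AN7902) to −0.24 ± 0.45 (AN7901), with adjusted p from 0.089 to 0.70 by limma. Limma and voom each called 0 of 10, and 1 had an unadjusted p under 0.05, whereas 29.5% of all genes passed downward and 14.4% upward. The libraries of both groups were scattered: AN7902 was at 0.244, 6.81 and 2.16 FPKM in BglC and at 34.2, 3.94 and 3.51 FPKM in AbfA. For 0 of 10 members were all BglC libraries below those of AbfA, beside 26.9% of all genes. A call of AN7902 appeared without replicate 3 of AbfA or replicate 2 of BglC, when 1 member passed, and also without the same 3 libraries (−1.25, adjusted p = 0.018 by limma). Without replicate 1 of AbfA the median difference of the members was −0.07 in place of −0.81.

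In some groups 1 replicate was the highest over the whole cluster. In AbfA at 2 h, replicate 1 was the highest for 10 of 10 members, with a median of 9.34 times the next library. In the parental strain at 8 h, replicate 2 was the highest for 10 of 10, with a median of 5.79 times the next library: AN7902 was at 15.3, 88.2 and 11.9 FPKM there. In BglC at 2 h, replicate 2 was the highest for 10 of 10, with a median of 2.80 times the next. Other groups had no such library: in BglC at 8 h the highest library was replicate 1 for 5 members, replicate 2 for 4 and replicate 3 for 1, and in 1542 at 2 h replicates 1 and 2 were the highest for 5 members each. After subtraction of the group means, the correlation between pairs of members over the 24 libraries ran from 0.590 to 0.979 (Pearson, 45 pairs, median 0.897), as a description of genes that share the same libraries.

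Over the other genes these libraries were closer to their replicates in some groups than in others. The mean correlation of log2(FPKM + 1) with the 2 other libraries of the group was taken over all tested genes but the members. It was 0.965 for AbfA replicate 1 at 2 h, the lowest of the 24, in a range up to 0.991. BglC replicate 2 at 2 h had 0.973, between replicate 1 of its group at 0.968 and replicate 3 at 0.980. Parental replicate 2 at 8 h had 0.986, close to 0.988 and 0.989 for replicates 1 and 3. AbfA replicate 1 at 2 h was also the deepest library and had the highest AbfA level, at 6255 FPKM against 3637 and 2689 in the other replicates. It was high in AN7909 too, at 162 FPKM against 7.43 and 6.88. The part of these features in the members' levels was not tested.

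**Figure D3:**
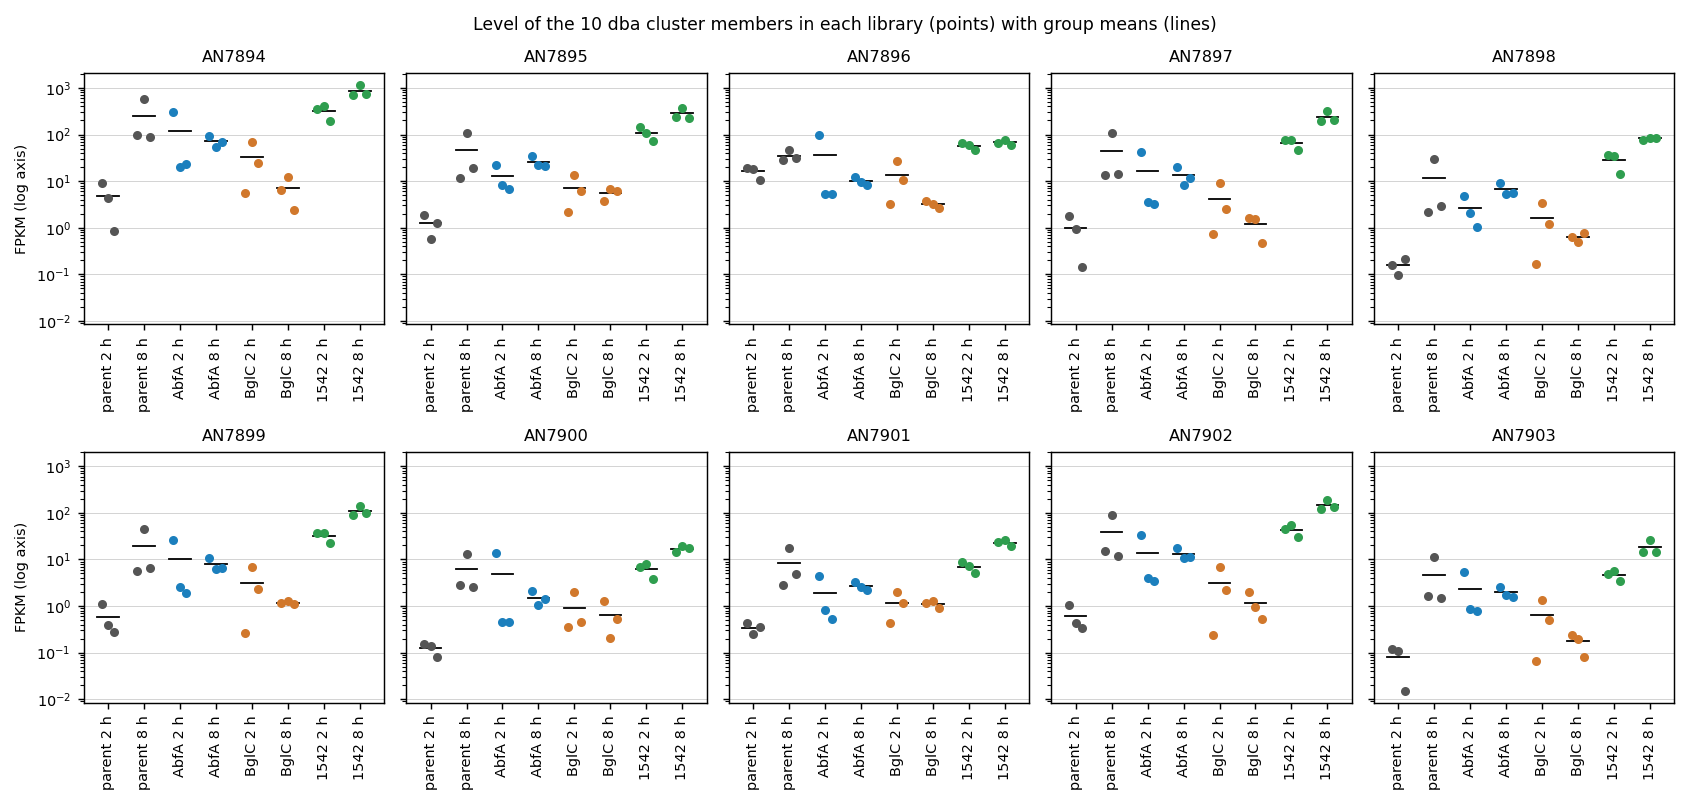
FPKM (log axis) of each of the 10 members in every library, with a point per library in order of replicate number and a line at the group mean. The 1542 points at 8 h stand at the top of most panels with little scatter. Single high points mark replicate 2 of the parental strain at 8 h and replicate 1 of AbfA at 2 h, and the former lies above the 1542 points at 2 h for several members.

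By its mean, the summed level of the members put the 8 groups in order. It was 1858 ± 497 FPKM in 1542 at 8 h and 675 ± 198 FPKM in 1542 at 2 h, and those groups did not overlap. The parental strain at 8 h followed with 469 ± 494 FPKM, then AbfA at 2 h with 220 ± 298 FPKM and AbfA at 8 h with 155 ± 43.2 FPKM. At the low end were BglC at 2 h with 68.6 ± 65.4 FPKM, the parental strain at 2 h with 25 ± 10.7 FPKM and BglC at 8 h with 22 ± 6.36 FPKM. From 1542 at 2 h downward, each group overlapped the next. By the median library the middle of the order was another, because single high libraries carried some means. The median was 184 FPKM in the parental strain at 8 h and 140 FPKM in AbfA at 8 h. It was 51.7 FPKM in BglC at 2 h and 48.1 FPKM in AbfA at 2 h. AN7894 weighed most in the sum, with a mean of 874 FPKM in 1542 at 8 h. AN7894 was the most abundant member per length in 20 of 24 libraries, and AN7903 the least abundant in 15 and AN7900 in 7. As the RNA came from whole mycelium, fewer expressing cells and less RNA per cell cannot be told apart.

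In the comparisons by which the members were picked, the directions were set by the choice, upward in 1542 at 2 h and downward in BglC at 8 h. In 1542 at 2 h the members' differences from the parental strain were 1.81 ± 0.73 (AN7896) to 6.04 ± 0.94 (AN7894), with a median of 4.47, and the libraries of 10 of 10 did not overlap, beside 30.1% of all genes whose 1542 libraries all lay above. AN7898, for example, was at 35.7, 34.8 and 14.2 FPKM in 1542 and at 0.156, 0.0965 and 0.211 FPKM in the parental strain, which held 10 reads of this gene in its 3 libraries together. In BglC at 8 h the differences were −4.64 ± 0.94 (AN7894) to −1.82 ± 0.45 (AN7901), with a median of −2.41, again with 10 of 10 not overlapping, beside 31.3% of all genes below. AN7897 was at 1.60, 1.51 and 0.479 FPKM in BglC and at 13.2, 106 and 14 FPKM in the parental strain. These values chose the members, so the directions and the counts without overlap rest on the choice, and the values are given for their size alone. Without parental replicate 2 at 8 h the median for BglC was −1.51.

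Other comparisons share 1 or both groups of libraries with the choice of members, and their values are also given without a test. At 2 h the median difference from the parental strain was 1.78 in AbfA (from −0.06 to 3.56), where all AbfA libraries were higher for 9 of 10 members (21.5% of all genes), and 1.07 without AbfA replicate 1. It was 0.98 in BglC (from −0.58 to 2.29), with 2 of 10 higher in all libraries (11.8% of all genes), and 0.40 without BglC replicate 2 or 1.56 without replicate 1. At 8 h it was −0.98 in AbfA (from −1.69 to 0.05), with 2 of 10 lower in all libraries (28.3% of all genes), and 2.36 in 1542 (from 0.94 to 3.52). All 4 of these share the parental libraries of their time with the comparisons above. AN7894 shows the order at 8 h: 715, 1175 and 733 FPKM in 1542, 99.3, 576 and 90 FPKM in the parental strain, 91.3, 53 and 70.6 FPKM in AbfA, and 6.46, 12.3 and 2.38 FPKM in BglC. The 1542 libraries lay above the parental ones for 10 of 10 members (13.3% of all genes). Without parental replicate 2 the AbfA median at 8 h was −0.10.

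The cluster's course over time was upward in the parental strain and 1542 and not in BglC. From 2 h to 8 h the members' median difference was 2.87 in the parental strain (from 1.10 to 5.23), with no overlap for 10 of 10 members (36.4% of all genes higher). It was 1.60 in 1542 (from 0.23 to 1.83), with no overlap for 9 of 10 (20% of all genes). In BglC it was −0.52 (from −1.71 to 0.02), with overlap for each member (15% of all genes were lower in every 8 h library), and without BglC replicate 2 at 2 h it was 0.044. AN7902 went from 1.03, 0.429 and 0.333 FPKM to 15.3, 88.2 and 11.9 FPKM in the parental strain and from 45.3, 55.3 and 30.9 FPKM to 118, 187 and 130 FPKM in 1542. In BglC the same gene was at 0.244, 6.81 and 2.16 FPKM at 2 h and 2.03, 0.94 and 0.53 FPKM at 8 h. Differences between these courses were not tested, since each shares libraries with the choice of members.

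AN7896 kept a pattern of its own within the cluster. Its highest group mean was 20.8 times its lowest, whereas for the other members this ratio ran from 66.2 (AN7901) to 531 (AN7898). In the parental strain at 2 h it was already at 19.5, 18.5 and 10.4 FPKM, when the other members were at 9.02 FPKM or less in every library. It was then the most abundant member in those 3 libraries. In 1542 it was at 67, 59.2 and 46.7 FPKM at 2 h and at 65.4, 77.2 and 60 FPKM at 8 h, so that both times overlapped, unlike for the other members. In AbfA apart from replicate 1 at 2 h it was lower than in the parental strain, at 5.37 and 5.28 FPKM at 2 h. Its correlation with the mean of the other members over the 24 libraries was 0.821, where the others had 0.960 to 0.997. As a description, this had no test.

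Among the genes that were not members, the most like them were AN7893, which lies next to the members, and AN11584, which lies between them. The correlation with the members' mean standardised profile over 24 libraries was 0.991 for AN7893 and 0.986 for AN11584. Next came AN0531 (0.947) and AN0528 (0.915) on chromosome VIII, AN8893 (0.916) and AN8894 (0.907) on chromosome VII, and AN8366 (0.911) and AN8308 (0.902) on chromosome V. These 8 were all that exceeded 0.9 among 9191 genes, whose median was 0.067. AN8308, as an example, had group means of 3391 FPKM in 1542 at 8 h, 1107 FPKM in 1542 at 2 h, 344 FPKM in the parental strain at 8 h and 5.33 FPKM in the parental strain at 2 h. AN7961 (−0.843) and AN12483 (−0.834) were at the other end. The 24 points share strains, times and replicates, so these values describe likeness only.

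The listed regulators of secondary metabolism were too few for a count of calls to say much. The gene list held laeA, a global regulator of secondary metabolite clusters, the velvet genes veA and velB, csnE, which encodes a subunit of the COP9 signalosome, and AN8694. Between 1542 and AbfA at 8 h, 0 of the 5 passed limma's test, which called 2.04% of all genes upward and 4.77% downward. For 5 genes a count of 0 is near that share. The part of these regulators in the cluster's difference was not tested. laeA (0.46 ± 0.14, adjusted p = 0.054 by limma) and velB (−0.37 ± 0.12, adjusted p = 0.066 by limma) came nearest, and both had an unadjusted p under 0.05. csnE was at 24.5 ± 0.221 FPKM in 1542 and 24.6 ± 3.46 FPKM in AbfA. In AbfA from 2 h to 8 h 1 of the 5 passed, velB (higher by 0.65 ± 0.12), beside 10.9% of all genes upward. In BglC against AbfA at 2 h 1 of the 5 passed, csnE (−1.02 ± 0.18), beside 29.5% of all genes downward.

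Of 14 other genes listed from general knowledge as polyketide synthases, 6 passed the filter on low values. In 1542 against AbfA at 8 h, 0 of these were higher and 1 was lower, pksP, a polyketide synthase of spore pigment (−2.40 ± 0.46, adjusted p = 0.0053 by limma). The list of spore markers names this gene wA, and the parental strain carries the mutation wA3. A culture of mycelium could also hold conidiophores and spores. Of 8 of their markers, 5 were lower in 1542 than in AbfA at 8 h, namely wetA (−1.81 ± 0.32), abaA (−0.91 ± 0.22), yA (−1.21 ± 0.34), ivoA (−1.58 ± 0.39) and pksP, which stands in both lists, and 0 were higher. The summed level of all 8 markers was 585 to 771 FPKM in 1542 and 1831 to 3552 FPKM in AbfA at 8 h, and none of the 8 was at 0. Most of that sum was rodA and ivoB, which did not pass. At 8 h, rodA had means of 358 FPKM in 1542 and 2342 FPKM in AbfA, and ivoB had 245 and 307 FPKM. The part of the 8 markers in the difference of the cluster was not tested. Between AbfA at 8 h and at 2 h 0 of 8 passed, and between BglC and AbfA at 2 h 2 of 8 were lower, ivoB (−2.49 ± 0.42) and ivoA (−1.25 ± 0.39), a share near the 29.5% of all genes lower there.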

How the data were processed

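The authors deposited FPKM values for 10631 genes, 1 column per library, with replicates not pooled. Tools listed per the submitters' processing notes, with no role or order, were HTSeq 0.6.0, DESeq2, bcl2fastq 1.8.4, SAMtools 0.1.18 and FastQC. The aligner, genome build, annotation and use of strand were not given in the sources used here, so reads of overlapping genes may not be separated. Values of 10631 genes (100%, tolerance 0.02) were whole multiples of 1 read, from which reads and coding lengths were recovered.

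Genes with at least 1 FPKM in at least 3 libraries (9201) entered limma (version 3.58.1, R version 4.3.3) as log2(FPKM + 1), in 1 fit of 8 group means with a mean-variance trend, two-sided, with Benjamini-Hochberg adjustment over all genes and a threshold of 0.05. The SE rests on the spread over all 24 libraries. The fit was also run on simulated data, with genes drawn independently and 1 spread per gene for all groups. That setting holds neither members that move together nor single libraries that stand apart, so it says nothing of these. Of 12 comparisons, 3 share no library with the choice of members and were tested, though their spread is shared with all groups. The members and gene lists were chosen with earlier results of these data known. The text names the members, their flanks, the listed genes and the 8 most and 2 least correlated genes. Names and gene order came from the RefSeq table of assembly ASM1142v1, which held 9941 of the measured IDs and a symbol for 14 of 30 listed genes.

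Alternatives were pseudocounts of 0.1 and 0.5, no filter, median-of-ratios scaling, voom on recovered reads with a trimmed mean of M values, fits of both groups alone or without the trend, a replicate block and leaving out each library. Leaving out together the 3 libraries that stood apart in the members was added after seeing the data. Libraries were treated as unpaired. Correlations of same-numbered deviations ran from −0.17 to 0.22 in the tested comparisons. Over 36 pairs in all 12 comparisons they ran from −0.35 to 0.59, above 0.1 in 10. Such correlations cannot tell whether same-numbered cultures were handled together.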

Additional observations from a re-analysis of the deposited data

How the results depend on the processing

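The count of 10 members called between 1542 and AbfA at 8 h was 10 in each setting that kept every library, except 9 with voom, and 7 to 9 without single libraries. The counts of 0 for AbfA over time and for BglC against AbfA at 2 h held in those settings and with voom, with 0 to 1 for the latter without single libraries. With a pseudocount of 0.1 the median difference was 5.88 for 1542 and 3.18 for AbfA against the parental strain at 2 h, −3.31 for BglC at 8 h and 4.48 for the parental strain over time. With voom it was 6.22 for 1542, 3.83 for AbfA and 2.22 for BglC at 2 h and 5.04 for the parental strain over time. The cause was not tested, though a smaller pseudocount spreads low values by construction. Without single libraries it ran from −2.96 to −1.51 for BglC and from −1.41 to −0.10 for AbfA at 8 h. With the 3 libraries that stood apart in the members left out together, chosen after seeing the data and by the members' own values, the counts were 8 for AbfA over time, 1 for BglC against AbfA at 2 h and 10 for 1542 against AbfA at 8 h, and the medians were −1.51 for BglC and −0.10 for AbfA at 8 h. Signs of AN7896 and AN7900 (0.79 and 0.78 for AbfA over time) and of AN7896 and AN7901 (0.13 and 0.072 for BglC against AbfA) reversed with it. Without single libraries, signs of members that had no call reversed. For AbfA over time the ranges were −0.31 to 1.63 (AN7894), −1.20 to 0.79 (AN7896), −0.073 to 1.61 (AN7897), −0.16 to 1.44 (AN7899), −0.89 to 0.78 (AN7900) and −0.23 to 0.68 (AN7903). For BglC against AbfA at 2 h they were −1.19 to 0.81 (AN7896), −1.64 to 0.012 (AN7899), −1.35 to 0.32 (AN7900) and −0.59 to 0.33 (AN7901).

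The replicate block changed no call of a member: the counts were 10, 0 and 0 with it. In BglC over time all 3 same-numbered pairs correlated above 0.1. That comparison has no test here, and in this balanced design a block cannot move its median difference (−0.52), so the unchanged value says nothing of the pairing. Over all genes, 627 were called between 1542 and AbfA at 8 h, 981 with those 6 libraries alone, and 240 to 637 without single libraries. For AbfA over time 1755 were called and 868 with those libraries alone, and for BglC against AbfA at 2 h 4040 and 1942. Levels of the parental strain at 2 h rest on few reads (8 of AN7900 and 10 of AN7898 over 3 libraries), so ratios to it are imprecise.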
